A study of Mus musculus with 24 samples.

Results

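The dystrophin-glycoprotein complex was followed through 8 of its genes, Dmd, Utrn, Dag1, Sgca, Sgcb, Sgcd, Sspn and Dtna. They were taken by symbol from the 24043 genes of the deposited table, with earlier results of these data known. All 8 were found there. The cells were C2C12, an established mouse myoblast line that proliferates in serum-rich medium and fuses into multinucleated myotubes after serum is reduced. Growth medium held 10% fetal bovine serum, and differentiation medium held 2% horse serum and the ITS supplement. Either medium was used at 21% oxygen (normoxia) or 2% oxygen (hypoxia), with RNA-seq replicates A and B of each of the 4 conditions, which the submitters call biological replicates. The labels name no genetic change and no drug in any group. The lengths of the hypoxia and of the differentiation are not given in the sources used here, and all libraries come from this single line. The series addressed how gene expression during myotube differentiation differs between normal and low oxygen.

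In a muscle fibre the complex ties the actin cytoskeleton to laminin in the basement membrane. Dystrophin, or its paralog utrophin, binds actin inside the cell and the transmembrane subunit of dystroglycan at the membrane, while the extracellular subunit carries sugar chains that hold laminin. Sarcoglycans and sarcospan form a subcomplex beside dystroglycan, and dystrobrevin and the syntrophins are attached to dystrophin in the cytoplasm. Loss of dystrophin causes Duchenne muscular dystrophy, and loss of single sarcoglycans causes limb-girdle forms.

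Levels are FPKM, fragments scaled by transcript length and by library size, as the authors deposited them. Changes are log2 differences of FPKM + 1 fitted with limma, given with their standard error (SE). A gene was called at a Benjamini-Hochberg adjusted p under 0.05 over all 12389 genes tested. Folds are ratios of group mean FPKM without the added 1, so at low levels they are wider than the log2 changes. The SE and adjusted p printed beside a fold belong to the log2 change. Dmd had too low a level to be tested. The other 7 genes had a mean above the test's minimum of 1 FPKM in every group, the lowest being 1.90 FPKM for Sgca in hypoxic differentiation medium. With 2 libraries against 2, an exact permutation test of a single gene cannot go below p = 0.333, so all calls rest on the fit across genes. What kind of separate cultures the letters A and B stand for is not given, so these p-values measure the spread between the libraries deposited.

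The myotube markers were checked against the labels first. The 9 myotube markers (Myog, Tmem8c, Ckm, Myh3, Acta1, Mef2c, Actn2, Tnnt1 and Ttn) summed to 6447 and 6475 FPKM in normoxic differentiation medium, against 48.3 to 61.6 in normoxic growth medium. In hypoxic differentiation medium they summed to 12.4 and 20.5 FPKM, and in hypoxic growth medium to 4.38 and 5.91, and Actn2 was listed at 0 in 3 of these 4 hypoxic libraries. The 5 myoblast markers, Des among them, also summed to less in the hypoxic libraries, at 66.6 to 130.1 FPKM against 414.1 to 794.0 in normoxia. Of these markers Pax7 alone overlapped, at 15.6 and 15.9 FPKM in hypoxic growth medium and 15.9 and 15.1 in normoxic differentiation medium. The 6 hypoxia genes summed to between 3429 and 4622 FPKM in the hypoxic libraries and to between 679.1 and 1183 in the normoxic ones. In differentiation medium 5 of them were higher in hypoxia at an unadjusted limma p under 0.05. Vegfa overlapped there, at 331.7 and 309.7 FPKM in normoxia and 429.9 and 309.6 in hypoxia. In hypoxic differentiation medium the 12 proliferation markers summed to 156.4 FPKM in replicate A and 468.7 in B, with each of the 12 higher in B, and 613 genes differed more than 2-fold between those replicates against 56 to 71 in the other groups. Lists for other cell types were also summed. Endothelial markers summed to at most 0.156 FPKM, and of the adipocyte markers Plin1 and Cidec were listed at 0 throughout. Adipoq was 0.126 and 0.133 FPKM in hypoxic differentiation medium and 0 elsewhere, and Fabp4 was above 0 in every library, at most 1.18. Ptprc reached at most 0.0137 FPKM, although Cd68 was 25.8 and 42.8 FPKM in hypoxic differentiation medium and at most 3.57 elsewhere. Hba-a1 was 0.729 and 3.85 FPKM in hypoxic differentiation medium and at most 1.84 elsewhere. Of the nerve markers Tubb3 was 36.8 and 65.7 FPKM in hypoxic differentiation medium and at most 15.1 elsewhere, while S100b stayed at or under 0.329. Among smooth muscle markers, Acta2 ranged from 66.5 to 397.0 FPKM, Smtn from 22.2 to 90.6, and Myh11 stayed at or under 0.0891. Cnn1 was 0.580 and 3.82 FPKM in hypoxic differentiation medium and at most 0.672 elsewhere. The part of proliferation, Cd68 and Tubb3 in the results below was not tested. In bulk RNA, fewer cells of a type and less RNA per cell cannot be told apart.

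Start regions are shown for Sgcd and Utrn, whose upstream windows hold the hypoxia-element letters searched here, and for Sgca, whose window does not. RefSeq promoter windows (GRCm38.p6, 250 bases before to 50 bases after an annotated start) were searched for 7 of the 8 genes, 10 windows in all. Dtna was left out of this search, so nothing is said here about its start region. The letters ACGTG, the core of the element bound by hypoxia-inducible factors, were searched on both strands, as was the E-box, written CANNTG. The E-box forms CAGCTG and, separately, CACCTG, both of which are also CANNTG matches, were counted on their own. In the next sequences, written 5′ to 3′ on the gene's strand, capitals mark ACGTG on either strand.

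Sgcd upstream 250 bases, chr11:47379326-47379575, minus strand: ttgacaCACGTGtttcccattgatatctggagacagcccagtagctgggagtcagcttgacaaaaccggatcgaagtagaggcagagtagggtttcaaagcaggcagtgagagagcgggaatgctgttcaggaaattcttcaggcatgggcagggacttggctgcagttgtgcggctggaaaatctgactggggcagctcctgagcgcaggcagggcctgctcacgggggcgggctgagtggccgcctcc

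Utrn upstream 250 bases, chr10:12861736-12861985, minus strand: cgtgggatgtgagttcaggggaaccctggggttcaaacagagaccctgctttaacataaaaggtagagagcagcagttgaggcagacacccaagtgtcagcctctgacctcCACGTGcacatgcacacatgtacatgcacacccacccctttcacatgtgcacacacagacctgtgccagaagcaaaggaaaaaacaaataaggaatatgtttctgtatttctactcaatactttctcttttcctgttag

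In both genes the 2 matches are the 2 strands of a single palindrome, CACGTG, which is also a CANNTG match. Counted from the annotated start, it begins at position -244 in Sgcd and -139 in Utrn. Besides these, a single Dag1 window held ACGTG, at position 39 after the start. Windows of Sgca, Sgcb, Sspn and Dmd held none. Of all 32851 mouse windows of the same length, 19.6% held ACGTG, against 3 of the 10 windows here. The alpha-sarcoglycan gene Sgca is shown for contrast, with capitals marking CANNTG.

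Sgca upstream 250 bases, chr11:94976328-94976577, minus strand: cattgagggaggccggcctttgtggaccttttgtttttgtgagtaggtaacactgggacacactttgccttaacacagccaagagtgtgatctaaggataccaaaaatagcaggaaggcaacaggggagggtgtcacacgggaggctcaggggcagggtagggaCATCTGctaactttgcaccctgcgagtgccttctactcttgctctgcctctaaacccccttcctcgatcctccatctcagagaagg

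No window of the 7 genes held CAGCTG or CACCTG, which 16.3% and 20.2% of all windows hold. CANNTG was held by 7 of the 10, against 72.3% of all windows. The Dag1 windows overlap each other and share a single CANNTG site, which is counted in each. The deposited values do not show which start is used in these cells, so a match is only a description of the annotated window.

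Most of the complex rose when myoblasts were moved to differentiation medium at 21% oxygen. Sgca, Sgcb, Sgcd, Dag1 and Dtna were called higher and Sspn lower, while Utrn was not called. The background was 66.5% of all genes called in either direction. That is 5 of 7 tested genes higher and 1 lower, against 25.5% of all genes higher and 41.0% lower in this comparison. The median change of the 7 genes was 1.04, and that of all genes tested was -0.20. At 2% oxygen the same change of medium left 1 gene higher (Dag1) and 1 lower (Sspn), against 23.3% and 17.6% of all genes (40.9% in either direction), with a median of -0.20 for the 7 genes and 0.07 for all. Neither of the 2 calls held when only the 4 hypoxic libraries were fitted or without hypoxic growth medium replicate B, and each of these fits left 0 calls among the 7 genes. Over all genes the calls went from 5073 to 3034 and 2501.

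Low oxygen in growth medium moved the genes in both directions. Sgcd, Utrn and Dag1 were called higher and Sgca and Sspn lower, against a background of 13.5% of all genes higher and 28.0% lower (41.4% in either direction). The median change was 0.02 for the 7 genes and -0.14 for all. Without either hypoxic growth medium library the calls went from 5 to 3, with Sgcd alone higher and Sgca and Sspn lower. In differentiation medium, where the myotube markers were high in normoxia alone, Sgca, Sgcb, Dag1, Dtna and Sspn were called lower in hypoxia and Sgcd higher, against 27.7% of all genes lower and 37.5% higher (65.2% in either direction). The median was -0.92 for the 7 genes and 0.15 for all. These comparisons share libraries pairwise, so they are set side by side and do not support each other.

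**Figure D1:**
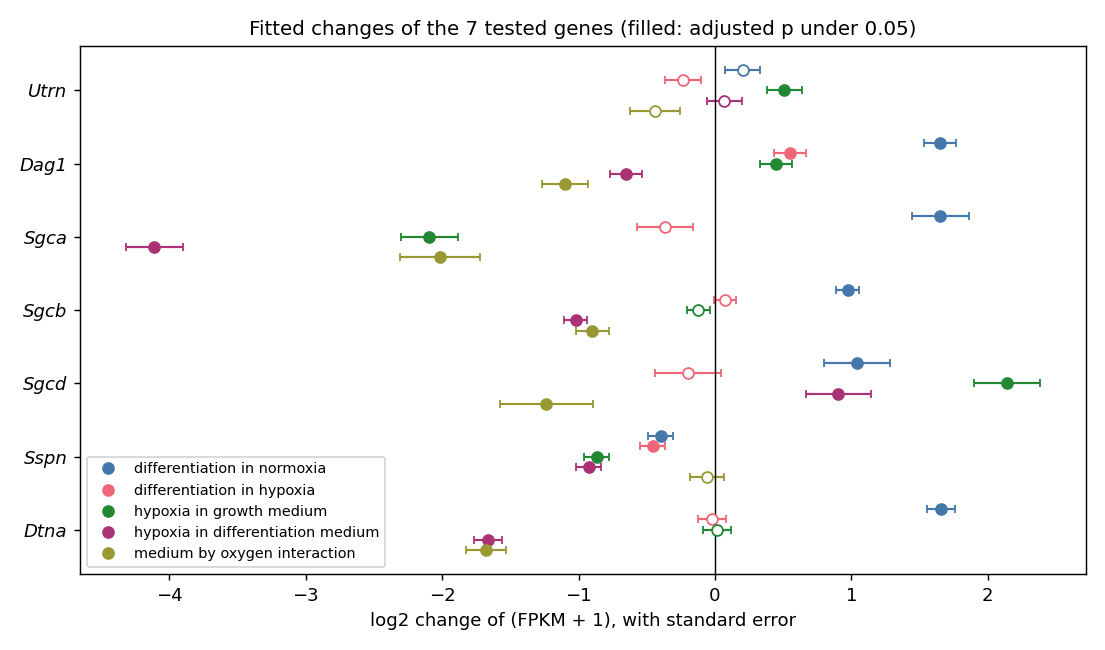
Fitted log2 change of FPKM + 1 (horizontal axis) for the 7 tested genes in the 5 comparisons, with the SE as bars; filled points passed an adjusted p of 0.05. Sgca lies farthest to the left, at -4.11 for hypoxia in differentiation medium, and Sgcd farthest to the right, at 2.14 for hypoxia in growth medium.

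Dmd encodes dystrophin, the actin-binding rod after which the complex is named. It was listed at exactly 0 in 6 libraries, those of both growth medium groups and of hypoxic differentiation medium. The normoxic differentiation libraries held 0.120 FPKM (A) and 0.114 (B). The values above 0 are therefore in the group with myotube markers, but at a level far under the other genes of the complex. An exact 0 in a table without counts can be a failed estimate, and no fold is given against it. None of 20 genes used by every cell was at 0 in any library. Of the protein-coding genes in the table, 56 span over 1000000 bases in RefSeq, as Dmd does. Among them, 17 were listed at 0 throughout and 13 reached a group mean of 1 FPKM. In the whole table of 24043 genes, 17914 were above 0 in a library and 12389 reached that mean. Sgcd spans 1018375 bases and was at least 4.63 FPKM in every library. Ptprd, at 2270506 bases, was 1.66 to 7.50 FPKM. Dmd has several promoters and isoforms of very different length, which a single gene value does not separate.

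Utrn encodes utrophin, the wider expressed paralog that can take the place of dystrophin. In normoxia it was 11.8 and 15.6 FPKM in growth medium (replicates A and B, as for all pairs below) and 15.4 and 16.2 in differentiation medium. In hypoxia it was 19.5 and 19.9 FPKM before and 16.4 and 16.8 after the change of medium. Its highest and lowest libraries differed by a smaller ratio than those of any other tested gene, and hypoxic growth medium was the highest group, with no overlap with the others. Hypoxia in growth medium raised it 1.44-fold (log2 change 0.51 ± 0.13 SE, adjusted p 0.0199), a call that was lost without either hypoxic growth medium library (adjusted p 0.088 and 0.0995). The change with differentiation in normoxia was 0.20 ± 0.13 (adjusted p 0.203). The libraries of those groups overlapped, and the change was called with library factors by median of ratios (0.46, adjusted p 0.0214) or without normoxic growth medium replicate B (0.39, adjusted p 0.0128). With the medium in hypoxia Utrn had a value of -0.23 ± 0.13 (adjusted p 0.191), which was called without normoxic growth medium replicate A (adjusted p 0.0489). For hypoxia in differentiation medium it was 0.07 ± 0.13 (adjusted p 0.654), with the sign turned under median-of-ratios factors. Because Dmd was at or near 0, no dystrophin to utrophin ratio is given.

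Dtna encodes alpha-dystrobrevin, a cytoplasmic relative of dystrophin that binds it and recruits syntrophins. It was 7.63 and 8.43 FPKM in normoxic growth medium, 7.98 and 8.29 in hypoxic growth medium, 7.42 and 8.61 in hypoxic differentiation medium, and 26.6 and 28.4 in normoxic differentiation medium. Only the last group stood apart, and the other 3 overlapped. Differentiation in normoxia raised Dtna 3.43-fold, from 8.03 ± 0.561 to 27.5 ± 1.29 FPKM (SD, n = 2; log2 change 1.66 ± 0.10 SE, adjusted p 2.13e-05). In differentiation medium it was 3.43-fold lower in hypoxia (-1.66 ± 0.10, adjusted p 1.93e-05). In hypoxia the change with medium was -0.02 ± 0.10 (adjusted p 0.896), and in growth medium the change with hypoxia was 0.02 ± 0.10 (adjusted p 0.915), and the sign of both turned when single libraries were left out.

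**Figure D2:**
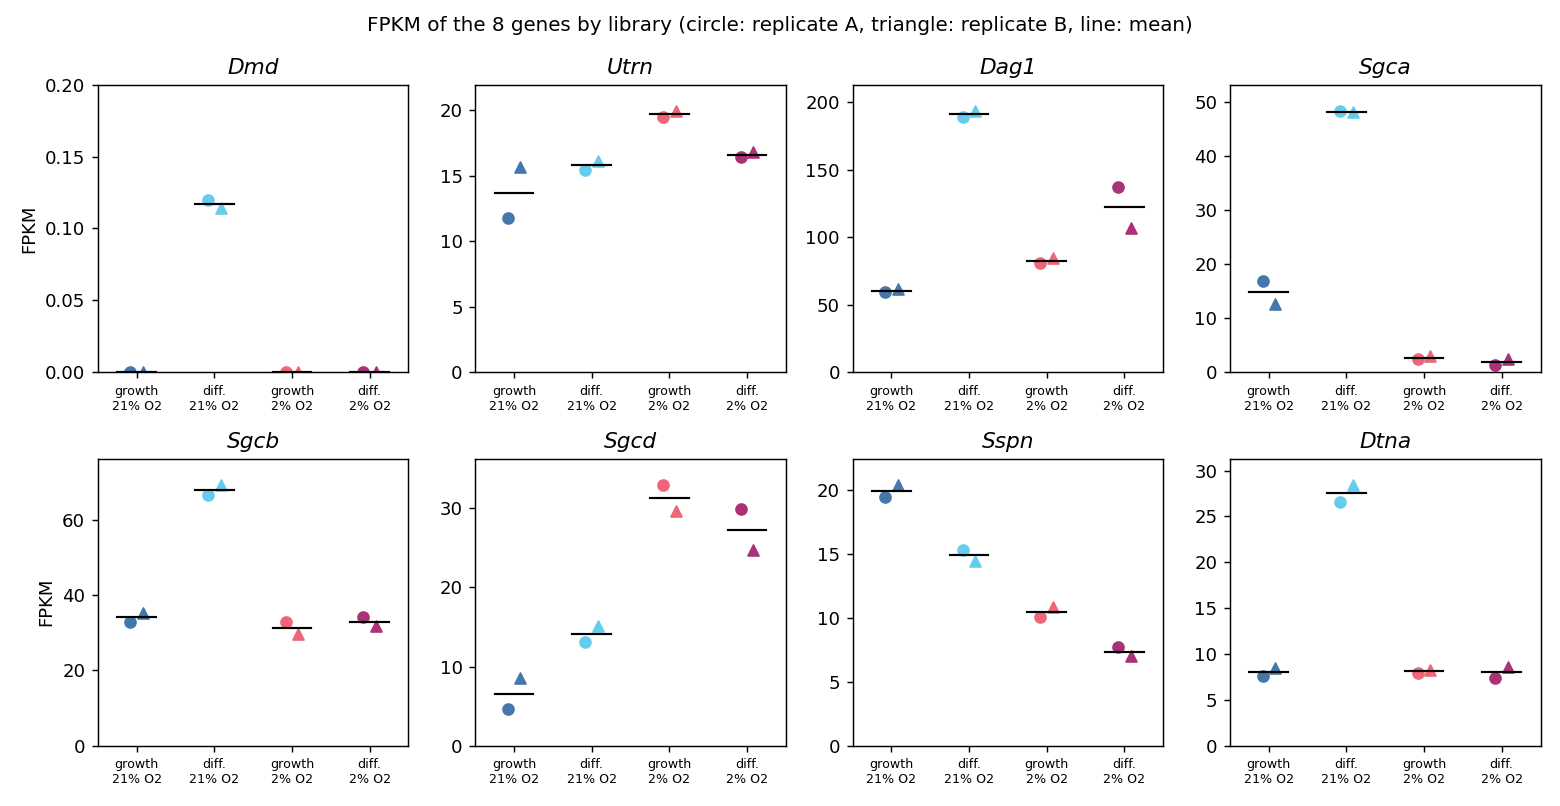
FPKM of each gene (vertical axis, each panel from 0) in the 4 groups; circles are replicate A, triangles replicate B and lines the group mean. Sgca, Sgcb, Dtna and Dag1 peak in normoxic differentiation medium, Sgcd and Utrn in hypoxic growth medium, and Sspn in normoxic growth medium.

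Dag1 encodes dystroglycan, a single precursor cut into the laminin-binding and the membrane-spanning subunit. Its levels were the highest of the 8 genes in every group, at 59.2 and 61.3 FPKM in normoxic growth medium, 80.7 and 84.4 in hypoxic growth medium, 137.4 and 107.0 in hypoxic differentiation medium, and 188.8 and 193.6 in normoxic differentiation medium. No neighbouring groups in this order overlapped. Differentiation raised it 3.18-fold in normoxia (1.65 ± 0.12, adjusted p 3.77e-05) and 1.48-fold in hypoxia (0.55 ± 0.12, adjusted p 0.0117). Dag1 was thus the one tested gene called higher with differentiation medium at both oxygen levels, but the hypoxic call was lost after upper-quartile scaling (adjusted p 0.0621), in a fit of the 4 hypoxic libraries alone (0.0573) and without either hypoxic growth medium library (adjusted p 0.0742 and 0.0579). The direction of the oxygen effect depended on the medium. In growth medium hypoxia raised Dag1 1.37-fold (0.45 ± 0.12, adjusted p 0.0228) and it was 1.57-fold lower in hypoxia in differentiation medium (-0.65 ± 0.12, adjusted p 0.00267). The growth medium call was lost when any single library of normoxic growth medium, hypoxic growth medium or normoxic differentiation medium was left out, with adjusted p from 0.0518 to 0.118.

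The sarcoglycans are single-pass membrane proteins that assemble into a complex in striated muscle. Sgca, the alpha subunit, is the one most restricted to striated muscle. It was 48.3 and 48.0 FPKM in normoxic differentiation medium, 16.9 and 12.7 in normoxic growth medium, 2.46 and 2.88 in hypoxic growth medium, and 1.35 and 2.44 in hypoxic differentiation medium. The order of the 4 groups held without overlap, though the last pair differed by less than the spread within it. Differentiation in normoxia raised Sgca 3.26-fold (1.65 ± 0.21, adjusted p 0.00048). In growth medium it was 5.54-fold lower in hypoxia (-2.09 ± 0.21, adjusted p 0.00052). In differentiation medium it was 25.4-fold lower in hypoxia (-4.11 ± 0.21, adjusted p 7.91e-06), the widest difference of any tested gene of the complex. With the medium change in hypoxia the value was -0.37 ± 0.21 (adjusted p 0.205), and it was called lower without hypoxic differentiation replicate B (-0.64, adjusted p 0.025), the replicate with the higher proliferation markers.

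Sgcb, the beta subunit, is needed for the assembly of the others. It was 66.6 and 69.3 FPKM in normoxic differentiation medium and between 29.8 and 35.4 in all 6 other libraries, whose groups were not separate from their neighbours in level. Differentiation in normoxia raised it 1.99-fold (0.97 ± 0.08, adjusted p 8.42e-05), and in differentiation medium it was 2.06-fold lower in hypoxia (-1.02 ± 0.08, adjusted p 6.58e-05). No call was made for hypoxia in growth medium (-0.12 ± 0.08, adjusted p 0.28) or for differentiation in hypoxia (0.07 ± 0.08, adjusted p 0.519), and upper-quartile scaling turned the sign of both. Its pattern over the groups was that of Dtna, a single high group, at a smaller fold.

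Sgcd, the delta subunit, is also made outside striated muscle, in smooth muscle among other places. It ran against the alpha subunit with oxygen. Its levels were 4.63 and 8.51 FPKM in growth medium and 13.1 and 15.1 in differentiation medium under normoxia, and 33.0 and 29.7 in growth medium and 29.9 and 24.7 in differentiation medium under hypoxia. All 4 hypoxic libraries were above all 4 normoxic ones. In growth medium hypoxia raised Sgcd 4.77-fold, from 6.57 ± 2.74 to 31.3 ± 2.32 FPKM (SD, n = 2; 2.14 ± 0.24 SE, adjusted p 0.000834). As a ratio, the 2 normoxic growth libraries lay farther apart than the pairs of the other groups, and the change was 1.76 (adjusted p 0.00259) without replicate A and 2.52 (adjusted p 0.00107) without replicate B of that group. In differentiation medium Sgcd was 1.94-fold higher in hypoxia (0.91 ± 0.24, adjusted p 0.0145), a call lost without either normoxic differentiation library or hypoxic differentiation replicate A (adjusted p 0.0511 to 0.0889). Differentiation in normoxia raised it 2.14-fold (1.04 ± 0.24, adjusted p 0.00805), which was lost without normoxic differentiation replicate B (adjusted p 0.0605). The change with medium in hypoxia was -0.20 ± 0.24 (adjusted p 0.558).

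Sspn encodes sarcospan, a small membrane protein that associates with the sarcoglycans. It was 19.4 and 20.4 FPKM in growth medium and 15.3 and 14.4 in differentiation medium under normoxia, and 10.1 and 10.9 in growth medium and 7.70 and 7.03 in differentiation medium under hypoxia. It was the one tested gene of the complex that was highest in proliferating normoxic cells, and no groups overlapped. It was 1.90-fold lower in hypoxia in growth medium (-0.87 ± 0.09, adjusted p 0.000631), and 2.02-fold lower in differentiation medium (-0.92 ± 0.09, adjusted p 0.000153). The medium lowered it 1.42-fold in hypoxia (-0.46 ± 0.09, adjusted p 0.00877), which was lost in a fit of the 4 hypoxic libraries alone (0.0518) and without hypoxic growth medium replicate B (adjusted p 0.0711). In normoxia the medium lowered it 1.34-fold (-0.40 ± 0.09, adjusted p 0.00755). That call depended on the scaling of the libraries, as it was lost under both other scalings, with -0.14 (adjusted p 0.323) by median of ratios and -0.27 (adjusted p 0.0722) by upper quartile, and also without normoxic differentiation replicate B (adjusted p 0.0601).

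The interaction tests whether the response to differentiation medium differs with oxygen. It was called for Dtna (-1.68 ± 0.15, adjusted p 0.000183), Sgcb (-0.90 ± 0.12, adjusted p 0.00103), Sgca (-2.02 ± 0.29, adjusted p 0.00157), Dag1 (-1.10 ± 0.17, adjusted p 0.00185) and Sgcd (-1.24 ± 0.34, adjusted p 0.0209), with a lower change on differentiation in hypoxia than in normoxia for each. That is 5 of 7 lower and 0 higher, against 18.7% of all genes lower and 35.4% higher (54.1% in either direction). At an unadjusted p under 0.05 limma gave 0 higher and 6 lower. The Sgcd interaction was lost without any single library of hypoxic growth medium or normoxic differentiation medium (adjusted p 0.0516 to 0.0841). Utrn was not called (-0.44 ± 0.18, adjusted p 0.0822) except with the median-of-ratios factors (-0.74, adjusted p 0.0175), the upper-quartile factors (-0.65, adjusted p 0.0301) and without normoxic growth medium replicate B (-0.63, adjusted p 0.00818). For Sspn the interaction was -0.06 ± 0.13 (adjusted p 0.723). For all genes tested the median interaction was 0.27 as deposited and -0.01 with median-of-ratios factors, and the signs of the 5 called genes were the same on both. Over all genes the share of called genes that were higher was 38.4% for differentiation in normoxia, 32.6% for hypoxia in growth medium and 65.5% for the interaction, against 53.6%, 43.4% and 47.3% with those factors. For hypoxia in differentiation medium the shares were 57.5% and 46.5%.

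Epsilon-sarcoglycan (Sgce), a paralog that stands in for alpha in many tissues, was taken from a list of related genes. It was 25.04 and 22.9 FPKM in growth medium and 9.28 and 8.81 in differentiation medium under normoxia, and 37.6 and 36.6 in growth medium and 31.2 and 24.2 in differentiation medium under hypoxia. Sgce fell 2.65-fold with differentiation in normoxia (-1.31 ± 0.13, adjusted p 0.000133) and rose 1.55-fold with hypoxia in growth medium (0.61 ± 0.13, adjusted p 0.00896). The latter call was lost without hypoxic growth medium replicate A (adjusted p 0.0595). With the medium in hypoxia Sgce was 1.34-fold lower (-0.42 ± 0.13, adjusted p 0.0372), a call lost in 10 of 16 alternatives (adjusted p 0.0531 to 0.153). Of the same list, Sgcz was at most 0.0230 FPKM.

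The make-up of these sarcoglycan transcripts was set out as shares. Of the summed FPKM of the 4 genes Sgca, Sgcb, Sgcd and Sgce, Sgca made up 35.2% and 34.0% in normoxic differentiation medium, 21.3% and 15.9% in normoxic growth medium, and 1.40% to 2.94% in the 4 hypoxic libraries. Sgcd made up 31.2% and 30.002% in hypoxic growth medium and 30.9% and 29.7% in hypoxic differentiation medium, against 5.82% to 10.7% in the normoxic libraries. Sgcb held 30.1% to 49.1% throughout. FPKM is per length, so genes can be set side by side within a library. The ratio of Sgce to Sgca was 0.192 and 0.183 in normoxic differentiation medium, 1.48 and 1.81 in normoxic growth medium, 15.3 and 12.7 in hypoxic growth medium, and 23.2 and 9.91 in hypoxic differentiation medium. Alpha thus exceeded epsilon in 1 group and epsilon exceeded alpha in the other 3. The sum of the 4 genes was 137.2 and 141.2 FPKM in normoxic differentiation medium and 79.4 to 105.7 in the other libraries.

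**Figure D3:**
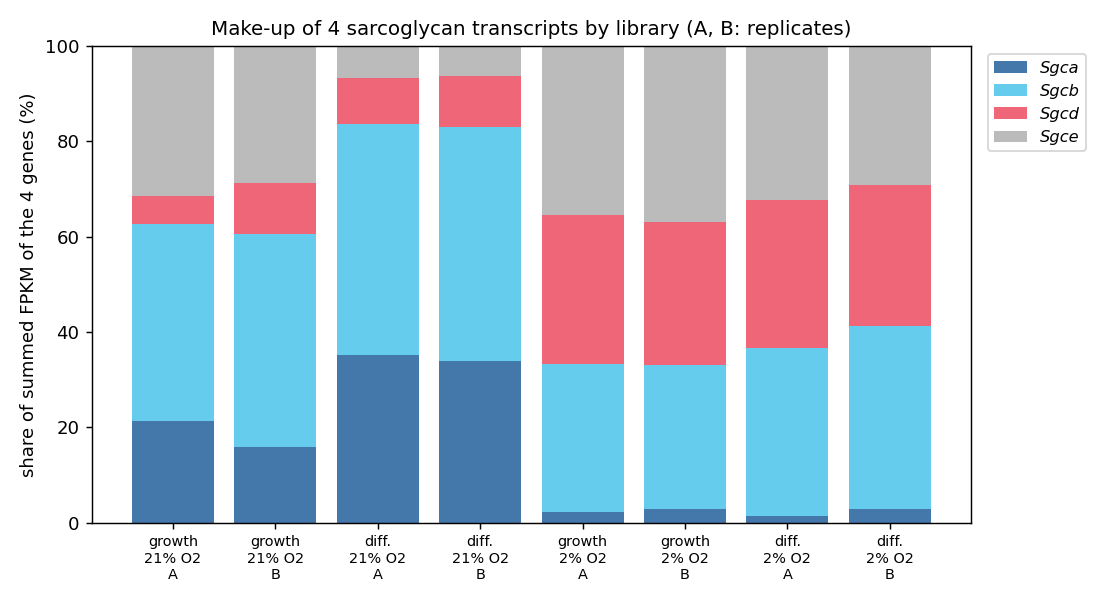
Share of each sarcoglycan gene in the summed FPKM of Sgca, Sgcb, Sgcd and Sgce (vertical axis, percent) in the 8 libraries. Sgca takes 35.2% and 34.0% in normoxic differentiation medium and at most 2.94% in hypoxia, while Sgcd takes 29.7% to 31.2% of the hypoxic libraries.

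Of 11 genes for syntrophins, beta-dystrobrevin and signalling proteins that bind the complex, 8 were tested, and with differentiation in normoxia 4 were called higher and 4 lower, against the 25.5% and 41.0% of all genes. Beta-1-syntrophin (Sntb1), an adaptor, rose from 1.40 ± 0.205 to 65.3 ± 4.13 FPKM (SD, n = 2; 4.79 ± 0.12 SE, adjusted p 3.73e-07). Caveolin-3 (Cav3), the muscle caveolin, went from 0.196 and 0.0503 FPKM to 90.6 and 84.9 (6.31 ± 0.11, adjusted p 1.82e-07). The kinase gene Mapk12, whose product binds alpha-syntrophin, rose 3.36-fold (1.65 ± 0.21, adjusted p 0.00047). In hypoxia the medium left 1 of the 8 called, against 40.9% of all genes, which was Grb2, higher (0.34 ± 0.07, adjusted p 0.0131). The Grb2 call was lost without either hypoxic growth medium library (adjusted p 0.0856 and 0.0688) and in a fit of the 4 hypoxic libraries alone (0.0546). The list's count went to 2 without either normoxic growth medium library, without hypoxic differentiation replicate A and with robust moderation of the variances. In growth medium the diacylglycerol kinase gene Dgkz was 2.11-fold lower in hypoxia (-1.02 ± 0.12, adjusted p 0.000899). Mapk12 was 1.70-fold lower (-0.68 ± 0.21, adjusted p 0.038), a call lost in 8 of 16 alternatives (adjusted p 0.0593 to 0.161). In this comparison 1 gene of this list was higher and 3 were lower, against 13.5% and 28.0% of all genes, or 1 in all without any single library of normoxic growth, hypoxic growth or normoxic differentiation medium. Of the 3 untested genes Sntg1 and Sntg2 were listed at 0 throughout, and Nos1, the neuronal nitric oxide synthase gene, was at most 0.543 FPKM.

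Of 18 genes for the enzymes that build the laminin-binding sugar of dystroglycan, 17 were tested. With differentiation in normoxia 3 were higher and 8 lower, against 25.5% and 41.0% of all genes, and their median change was -0.07, near that of all genes (-0.20). The count of 11 went to 7 without normoxic growth medium replicate A and to 6 without normoxic differentiation replicate B. B4gat1 (listed as B3gnt1), a glucuronyltransferase that primes the chain, fell from 26.0 ± 4.23 to 11.9 ± 0.991 FPKM (SD, n = 2; -1.06 ± 0.12 SE, adjusted p 0.000317), followed by Pomt1 (-0.83 ± 0.14, adjusted p 0.00172), of the O-mannosyltransferase, and Dpm2 (-0.79 ± 0.18, adjusted p 0.00806), of dolichol-phosphate-mannose synthase. The Dpm2 call was lost without normoxic differentiation replicate B (adjusted p 0.0595). In hypoxia the medium raised 4 and lowered 0, against 23.3% and 17.6% of all genes, and at an unadjusted p under 0.05 limma gave 6 higher and 1 lower. This count went to 2 without either hypoxic growth medium library and to 6 higher and 2 lower without hypoxic differentiation replicate B. Gmppb, which makes GDP-mannose, rose 2.75-fold (1.22 ± 0.12, adjusted p 0.000707). Low oxygen in growth medium raised 1 gene of this list and lowered 5, close to the 13.5% and 28.0% of all genes, with B4gat1 at -0.83 ± 0.12 (adjusted p 0.00245) and Gmppb at -0.77 ± 0.12 (adjusted p 0.00262).

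Of 12 genes for matrix proteins that bind dystroglycan or the laminin network, 11 were tested. Differentiation in normoxia raised 5 and lowered 5, against 25.5% and 41.0% of all genes, with a median change of -0.14 for the list. In hypoxia the medium raised 0 and lowered 8, against 23.3% and 17.6% of all genes, with a median of -0.66. At an unadjusted p under 0.05 limma gave 0 higher and 9 lower. Laminin alpha-2 (Lama2), the chain of muscle basement membrane, went from 4.37 ± 0.578 to 15.2 ± 0.692 FPKM in normoxia (SD, n = 2; 1.59 ± 0.12 SE, adjusted p 4.21e-05). In hypoxia it went from 2.98 ± 0.138 to 1.17 ± 0.137 FPKM (-0.88 ± 0.12, adjusted p 0.00208). Agrin (Agrn), a proteoglycan ligand of dystroglycan, rose 2.94-fold in normoxia (1.495 ± 0.11, adjusted p 4.32e-05). Nidogen-1 (Nid1), a linker of the laminin network, fell 3.33-fold (-1.69 ± 0.08, adjusted p 7.86e-06). With hypoxia in growth medium the 2 nidogens moved apart, with Nid1 2.18-fold higher (1.12 ± 0.08, adjusted p 0.000203) and Nid2 3.01-fold lower (-1.56 ± 0.09, adjusted p 9.2e-05). Biglycan (Bgn), which binds dystroglycan and sarcoglycans, fell 3.58-fold with the medium in hypoxia (-1.87 ± 0.20, adjusted p 0.00102).

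Of 14 genes for cytoskeletal and costamere partners, 12 were tested, and differentiation in normoxia raised 5 and lowered 3, against 25.5% and 41.0% of all genes, with a median change of 0.23 for the list. Ankyrin-B (Ank2), which helps place dystrophin at the membrane, rose 11.02-fold (2.66 ± 0.11, adjusted p 4.4e-06). The sarcoglycan-binding filamin C (Flnc) rose 4.54-fold (2.16 ± 0.10, adjusted p 5.05e-06) and desmin (Des) 2.27-fold (1.19 ± 0.26, adjusted p 0.00605). Keratin 19 (Krt19), a filament protein that binds the actin-binding domain of dystrophin, was 6.32 and 6.11 FPKM in growth medium and 2.87 and 2.80 in differentiation medium under normoxia, and 91.0 and 97.6 in growth medium and 161.2 and 179.0 in differentiation medium under hypoxia. Every hypoxic library was above every normoxic one. Hypoxia in growth medium raised Krt19 15.2-fold (3.72 ± 0.08, adjusted p 2.67e-06). Within hypoxia Krt19 was 1.80-fold higher in differentiation than in growth medium (0.84 ± 0.08, adjusted p 0.000802). Of the other keratins in the list, Krt8 was at most 0.204 FPKM and Krt18 was listed at 0 throughout. Des fell 3.33-fold with hypoxia in growth medium (-1.72 ± 0.26, adjusted p 0.00258), and ankyrin-G (Ank3) fell with the medium in hypoxia (-1.01 ± 0.12, adjusted p 0.00154). Hypoxia in growth medium raised 4 genes of this list and lowered 5, against 13.5% and 28.0% of all genes, or 2 and 3 without normoxic growth medium replicate A or hypoxic growth medium replicate B. The medium in hypoxia raised 4 and lowered 3, against 23.3% and 17.6% of all genes, or 1 and 2 both in a fit of the 4 hypoxic libraries alone and without hypoxic growth medium replicate B, and 1 and 3 without replicate A.

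**Figure D4:**
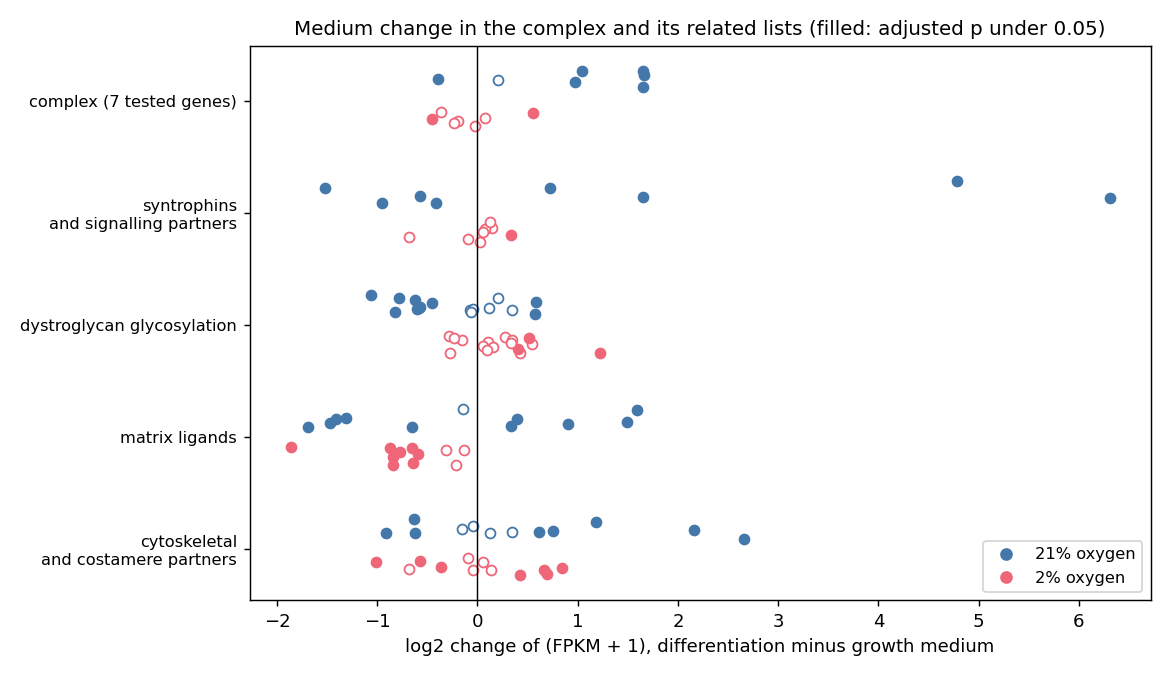
Log2 change of FPKM + 1 from growth to differentiation medium (horizontal axis) for tested genes of the complex and of 4 related lists, at 21% oxygen and at 2% oxygen; filled points passed an adjusted p of 0.05, and the vertical scatter within a list has no meaning. At 21% oxygen single genes reach 4.79 (Sntb1) and 6.31 (Cav3). At 2% oxygen no increase passes 1.22 (Gmppb), and among decreases Bgn lies at -1.87.

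The genes whose levels followed each member most closely over the 8 libraries were ranked by Pearson's r among tested genes that reached 10 FPKM. The libraries share their groups, so these values describe likeness in 4 conditions. Dtna was followed by Wdr77, Syne1 and Phf11d (r = 0.999, 0.998 and 0.998). Sgcb was closest to Cfl2, Thumpd3 and Ccdc141 (r = 0.997, 0.997 and 0.996). Sgca was closest to Vasp, Pxn and Pkig (r = 0.997, 0.994 and 0.994), with mean levels of Vasp of 61.9 FPKM in normoxic and 32.8 in hypoxic growth medium. The hypoxia-raised Sgcd was closest to Rspry1, Rnf13 and Cdc42bpa (r = 0.990, 0.985 and 0.983). Dag1 was closest to Ghitm, P2rx3 and Serinc3 (r = 0.992, 0.991 and 0.989), and Sspn to Dcaf8, Echs1 and Lrch1 (r = 0.994, 0.993 and 0.993). Utrn had the least close neighbours, Klf7, Slc25a36 and Clip1 (r = 0.960, 0.926 and 0.913).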

How the data were processed

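RNA was extracted with Trizol and made into Illumina stranded total RNA libraries, per the labels' protocols. Reads were processed with STAR 2.5.1b and Cufflinks 2.2.1 on mm9, per the submitters' processing notes, and the authors deposited 1 FPKM value per gene and library. The annotation, use of strand and scaling are not given in the sources used here. Of the members, Dmd, Utrn, Sgca and Sgcd overlap other genes in RefSeq, and those of them in the table stayed under 1 FPKM. Totals were 480018 to 534167 FPKM per library. Absolute depth is not in the values, and steps between low values gave relative depths of 0.633 to 1. H3K27me3 data (8 libraries with 8 inputs) were not used here.

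All 8 RNA libraries were fitted in limma 3.58.1 under R 4.3.3. The model of log2(FPKM + 1) had 4 group means, a variance trend and no replicate block, for genes with a mean of at least 1 FPKM in a group. Tests were two-sided. On simulated data for differentiation in normoxia (12387 genes), 78% of 100 genes with a log2 change of 1 and 95% of 100 with a change of 2 were called. There were 11 false calls. The changed genes had a log2(FPKM + 1) above 2 in normoxic growth medium and were fewer than the genes called in the data. These rates therefore do not cover genes of lower level. Members and lists were chosen with earlier results of these data known. Genes named from the related lists were those with the largest called changes, up to 3 for differentiation in normoxia and up to 2 each for hypoxia in growth medium and differentiation in hypoxia. Genes with symbols starting Mir, Snor or Gm were left out of the likeness ranking. Some of the 18 glycosylation genes were matched through older symbols. A few genes that the rule would name are not reported here. Alternatives were other pseudocounts, filters, scalings, moderation, a replicate block, fits of only the libraries compared, and leaving out each library.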

Additional observations from a re-analysis of the deposited data

Results flagged for a closer look

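The response to differentiation medium differed between 2% and 21% oxygen by limma's interaction test for 5 of the 7 tested genes of the complex. The interaction was -1.68 for Dtna, -0.90 for Sgcb, -2.02 for Sgca, -1.10 for Dag1 and -1.24 for Sgcd on the log2 scale. For Dtna, Sgcb, Sgca and Sgcd a change was called at 21% oxygen and not at 2%, while for Dag1 both changes were called and the hypoxic one was smaller. No group had enough libraries for a check of single outlying values.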

How the results depend on the processing

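For the 7 tested genes, the count of calls per comparison stayed within 1.5 times its value in most alternatives. For differentiation in hypoxia 2 calls went to 1 after upper-quartile scaling and to 0 with only the libraries compared, and for hypoxia in growth medium 5 calls went to 3 without either hypoxic growth library. Leaving out 1 library gave 4 to 7 calls for differentiation in normoxia, 0 to 3 for differentiation in hypoxia, 3 to 5 for hypoxia in growth medium, 5 to 6 for hypoxia in differentiation medium and 4 to 6 for the interaction. Without a filter on low values Dmd was tested and called for differentiation in normoxia, which made 7 calls. Signs turned only for changes that were not called. These were Sgcb after upper-quartile scaling (differentiation in hypoxia -0.0163, hypoxia in growth medium 0.0436), Utrn for hypoxia in differentiation medium after median-of-ratios scaling (-0.13), and Dtna for differentiation in hypoxia without hypoxic growth replicate B (0.0031) or hypoxic differentiation replicate A (0.0732; -0.1161 without B) and for hypoxia in growth medium without normoxic growth replicate A (-0.0463; 0.0804 without B) or hypoxic growth replicate B (-0.0074). Among related genes, signs turned for Gmppb, differentiation in normoxia (0.20, 0.0746 and 0.0179 after median-of-ratios, upper-quartile and without normoxic differentiation replicate A, and -0.098 without B), Ank3, differentiation in normoxia without normoxic growth replicate A (-0.0263; 0.2692 without B), Mapk12, differentiation in hypoxia (-0.0261 upper-quartile, -0.0017 without hypoxic growth replicate B, -0.28 without hypoxic differentiation replicate B, 0.389 without A), Dgkz, differentiation in hypoxia (-0.0086 upper-quartile, -0.0404 without hypoxic differentiation replicate B), Pomt1, hypoxia in growth medium (0.017 upper-quartile), and B3gnt1, hypoxia in differentiation medium without normoxic differentiation replicate A (0.0293). Over all genes, differentiation in hypoxia gave 5073 calls, 3034 with only the libraries compared, and 2688 and 2501 without hypoxic growth replicates A and B, and hypoxia in growth medium gave 5135 calls, 2997 and 3083 without these replicates. The causes were not tested.

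The A minus B differences of the 6 pairs of groups correlated between -0.17 and 0.04 across genes, so no shared replicate effect was seen. This cannot tell whether the letters mark matched cultures. With the letter as a replicate block the counts for the 7 genes were 6, 2, 5, 6 and 5 in the order above, as without it, and 4 calls among syntrophins and signalling genes for hypoxia in growth medium became 2. For genes under about 1 FPKM, such as Dmd and Cav3 in growth medium, the size of a log2 change depends on the pseudocount. The part of depth in these low values was not tested.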
